A study of Mus musculus with 6 samples.

Results

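B1 elements are short interspersed repeats (SINEs) of rodent genomes. The regions described here are the TERT CUT&Tag regions of mouse primary neurons whose centre fell in such an element. They were chosen by annotation alone, as all regions on chromosomes 1 to 19 and X whose detailed annotation named a SINE of the Alu family, the class that holds mouse B1. There were 725 of them among 41515 regions. TERT is the catalytic protein of telomerase, and CUT&Tag uses an antibody to bring a transposase to a chromatin protein so that the DNA beside it is cut and tagged. The neurons came from the cortex and hippocampus of C57BL/6 mouse embryos of days E15-18. Of 6 samples, 3 received vehicle (DMSO, called untreated in another label field) and 3 received 2 µM BIBR1532, a small-molecule inhibitor of telomerase, each for 24 h. The libraries of each condition had been combined before the regions were listed, so each condition is 1 pooled measurement with no replicate error, and no depth per sample is known. No test between the conditions was made. Intervals below are exact (Clopper-Pearson) 95% binomial intervals, which cover counting error only, and regions are not replicates of a condition. No control library without the antibody is among the samples.

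A B1 element derives from 7SL RNA, the RNA of the signal recognition particle, as the human Alu element does. It carries an internal RNA polymerase III promoter made of an A box and a B box, and it spreads by being copied with the reverse transcriptase of LINE-1. B1 copies are known to lie mostly in gene-rich sequence. Their names mark age: B1_Mm and B1_Mus copies are the youngest, B1_Mur copies are shared by murid rodents, and B1F and PB1 copies are older forms. These are called young, murid and older below. Young copies resemble each other closely, and no source used here says how reads that match several copies were placed. Its part in the results was not tested.

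The letters of the B1 copies themselves are not shown, since no genome sequence was used here. Of the RefSeq promoter windows on GRCm38.p6 (the mm10 assembly), each running from 250 bases before to 50 after a gene start, exactly 1 of 32851 was overlapped by a B1 region. Few could be, since a repeat is named only where the region centre lies in no promoter, exon, gene end or CpG island. The overlapped window belongs to Cd80, which encodes a costimulatory protein of antigen-presenting cells, and lies at chr16:38458683-38458982. It is shown with the windows of 3 genes that have a B1 region close by and another region on the promoter itself: Ankle1 (chr8:71405762-71406061), Oaz1 (chr10:80826406-80826705) and D10Wsu102e (chr10:83359971-83360270). These 3 were chosen after their values were seen. All 4 are on the plus strand and are written 5′ to 3′. Capitals mark matches, on either strand, to the A box in its B1 form (TGGNNCANG), the B box (GTTCGANNC), the telomere repeat unit (TTAGGG) or the E-box (CACGTG).
Cd80: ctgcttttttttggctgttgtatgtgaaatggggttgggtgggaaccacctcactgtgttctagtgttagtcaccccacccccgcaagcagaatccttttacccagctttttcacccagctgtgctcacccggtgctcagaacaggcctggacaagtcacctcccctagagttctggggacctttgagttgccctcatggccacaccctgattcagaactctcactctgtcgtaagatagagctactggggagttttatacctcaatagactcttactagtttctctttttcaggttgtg
Ankle1: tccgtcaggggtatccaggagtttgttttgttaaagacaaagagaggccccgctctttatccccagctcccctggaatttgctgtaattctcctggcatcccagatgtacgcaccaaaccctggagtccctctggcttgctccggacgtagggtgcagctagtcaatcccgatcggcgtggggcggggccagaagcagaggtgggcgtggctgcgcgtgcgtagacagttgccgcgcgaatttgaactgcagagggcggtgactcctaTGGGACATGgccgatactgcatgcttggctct
Oaz1: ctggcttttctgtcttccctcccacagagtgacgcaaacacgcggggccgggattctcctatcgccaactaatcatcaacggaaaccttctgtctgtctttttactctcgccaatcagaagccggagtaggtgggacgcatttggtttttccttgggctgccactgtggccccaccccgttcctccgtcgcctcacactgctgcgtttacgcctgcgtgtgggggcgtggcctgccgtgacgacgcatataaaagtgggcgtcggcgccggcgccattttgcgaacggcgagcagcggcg
D10Wsu102e: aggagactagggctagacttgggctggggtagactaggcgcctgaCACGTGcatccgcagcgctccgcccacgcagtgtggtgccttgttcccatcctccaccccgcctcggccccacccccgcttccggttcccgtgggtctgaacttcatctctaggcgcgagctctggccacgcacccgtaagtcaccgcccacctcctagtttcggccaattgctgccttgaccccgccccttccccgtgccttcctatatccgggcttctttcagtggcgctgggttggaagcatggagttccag

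The A box form was found in the Ankle1 window and the E-box in that of D10Wsu102e, 1 match each, and the Cd80 and Oaz1 windows held no match to any of the 4 motifs. Over all windows of this length the A box form was present in 17.1%, the B box in 0.843%, the telomere unit in 10.6% and the E-box in 7.15%. A match is a run of letters and not a measured site. The windows differed in CpG number. The Cd80 window held 3 CpG, against 18 for Ankle1, 21 for D10Wsu102e and 29 for Oaz1, and the median window held 7. The Cd80 window lay inside a BIBR1532 region of 7023 bp with its centre in a B1_Mus2 copy (score 8.87). On the Ankle1 window lay a common region (score 0.355) and a vehicle region (2.83). On the Oaz1 window lay a common region (0.364), and on that of D10Wsu102e a vehicle region (1.73).

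The first question was whether B1 regions were listed as common to both conditions or as higher in 1 of them. They lay almost wholly in the lists of regions higher in 1 condition, called condition-specific here. Such a region need not be absent from the other condition. The common list held 11 of the 725 (1.52%, interval 0.76 to 2.7), the BIBR1532 list 319 (44%, 40.3 to 47.7) and the vehicle list 395 (54.5%, 50.8 to 58.2). Over all 41515 regions the common list held 16.4%, the BIBR1532 list 38.9% and the vehicle list 44.7%. Regions of the SINE families B2 and B4 were rarely common too (19 of 725 and 19 of 893). So were those of the LTR family MaLR (8 of 983), and the scarcity was thus not particular to B1. Regions were put in the BIBR1532 list where the signal of its pool was the higher, and in the vehicle list where that of the vehicle pool was. That direction was read from the order of the conditions in the names of the lists and is likely, not stated outright.

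A repeat is named only where the region centre lies in no promoter, exon, gene end or CpG island, so the fitting denominator is the intron and intergenic regions. In these, B1 made up 0.507% of the common list (11 of 2169, interval 0.253 to 0.906), 2.4% of the BIBR1532 list (319 of 13274, 2.15 to 2.68) and 2.57% of the vehicle list (395 of 15367, 2.33 to 2.83). The interval of the common list lay below those of the other lists, whose intervals overlapped. Among regions in interspersed repeats alone (SINE, LINE, LTR and DNA elements), B1 made up 4.64% of the common list (2.34 to 8.15), 9.1% of the BIBR1532 list (8.17 to 10.1) and 9.56% of the vehicle list (8.68 to 10.5). Within repeats the interval of the common list therefore also lay below the others, but by little. LINE-1 (L1) made up 127 of these 237 common regions and 2392 of the 7637 condition-specific ones, so the denominators differed in make-up. Of the 60 SINE regions in the common list, 11 were B1 (18.3%, 9.52 to 30.4), against 27.6% of the condition-specific SINE regions (25.9 to 29.4), and those intervals overlapped.

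**Figure D1:**
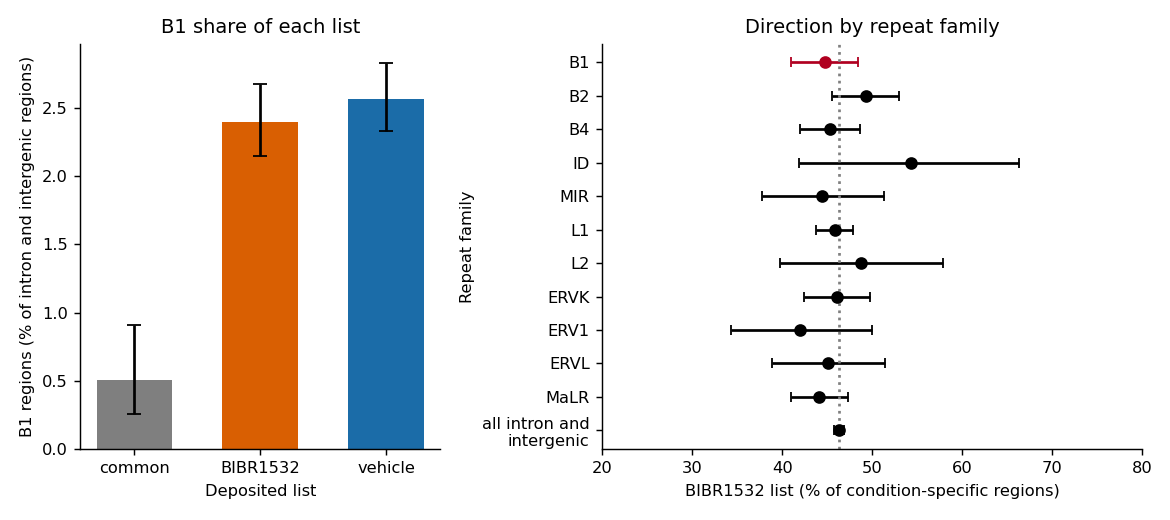
Left, B1 regions as a percent of the intron and intergenic regions of each deposited list (bars, with exact 95% intervals): 0.507% of common, 2.4% of BIBR1532 and 2.57% of vehicle regions. Right, the BIBR1532 list as a percent of the condition-specific regions of each repeat family (points, with exact 95% intervals); the B1 point at 44.7% has an interval that holds the dotted line, which marks 46.3% for all intron and intergenic regions.

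The second question was whether B1 regions leaned to a condition. Of the 714 condition-specific B1 regions, 319 were BIBR1532 regions (44.7%, interval 41 to 48.4). Over all condition-specific regions in introns and intergenic sequence the share was 46.3% (45.8 to 46.9), inside the B1 interval. The other SINE families had shares of 49.3% for B2 (45.5 to 53), 45.3% for B4 (42 to 48.7), 44.4% for MIR (37.7 to 51.3) and 54.3% for ID (41.9 to 66.3). L1, the LINE whose enzyme copies SINEs, had 45.9% (43.8 to 47.9). The B1 share thus could not be told apart from any of these within counting error. By covered length the B1 regions came to 143 kb in the BIBR1532 list and 170 kb in the vehicle list, or 2.17% and 2.29% of the length of each list.

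The BIBR1532 share was highest for young copies and lowest for older ones, but these differences were within counting error. Young B1 regions were 113 BIBR1532 and 114 vehicle (49.8% BIBR1532, interval 43.1 to 56.5). Murid copies were 89 and 112 (44.3%, 37.3 to 51.4), and older copies 117 and 169 (40.9%, 35.2 to 46.9). The 3 intervals overlapped and the difference between age groups was not tested. All 3 intervals held 46.3%, the share over all intron and intergenic regions, the older one only just. Among regions whose score is the value most often given in the list (the tied score, below), the shares were 51.9%, 38.9% and 37.8%, and among the rest they were 46.9%, 51.1% and 45.1%, so the order from young to older was not kept there. In introns older copies were 55 BIBR1532 and 97 vehicle regions (36.2%, 28.6 to 44.4), and in intergenic sequence 62 and 72 (46.3%, 37.6 to 55.1).

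Seen from the side of each list, young copies made up 35.4% of the BIBR1532 B1 regions (30.2 to 40.9) and 28.9% of the vehicle ones (24.4 to 33.6). Older copies made up 36.7% (31.4 to 42.2) and 42.8% (37.8 to 47.8). The 11 common B1 regions were 5 young, 1 murid and 5 older copies. B1_Mus1 was the most frequent name, with 61 BIBR1532, 63 vehicle and 4 common regions. PB1D10, a proto-B1 form, followed with 34, 43 and 2. B1_Mur4 had 28 BIBR1532 and 39 vehicle regions. B1_Mus2 was the name with the highest BIBR1532 share (33 of 62, 53.2%, interval 40.1 to 66). The lowest share was that of B1F2 (6 of 20, 30%, 11.9 to 54.3), followed by PB1 (6 of 18, 33.3%, 13.3 to 59) and PB1D9 (15 of 44, 34.1%, 20.5 to 49.9). Each of the 15 names had an interval that held 46.3%, so none stood apart from all intron and intergenic regions beyond counting error.

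**Figure D2:**
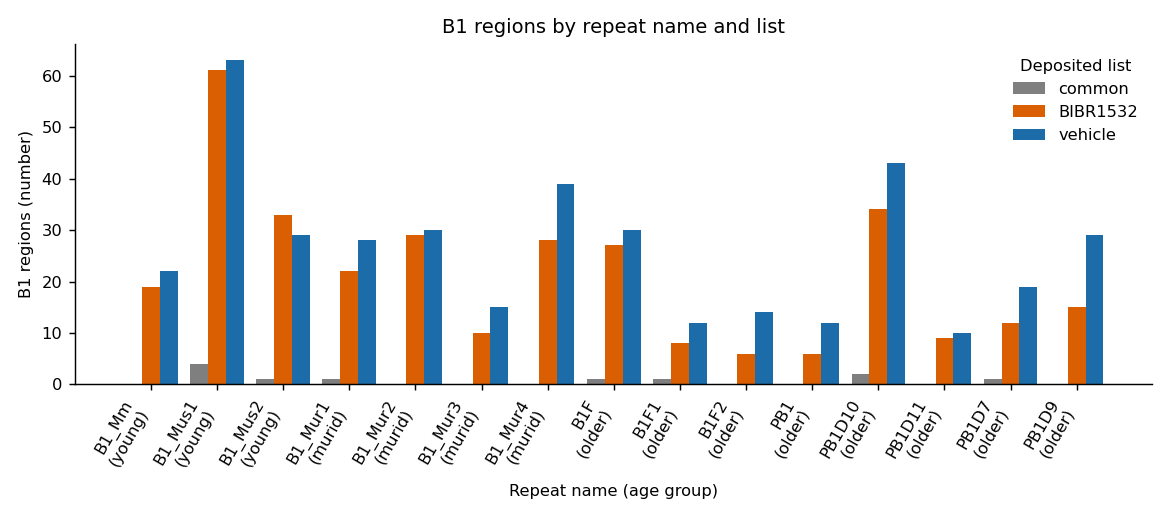
Number of B1 regions (y axis) by repeat name with its age group (x axis), in the common (grey), BIBR1532 (orange) and vehicle (blue) lists. B1_Mus1 is tallest with 61 and 63 condition-specific regions, and PB1D9 shows the gap of 15 against 29.

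The authors' score puts most B1 regions at a single value. In the BIBR1532 list 174 of 319 B1 regions (54.5%, interval 48.9 to 60.1) had the score 6.34, the most frequent of that list, called its tied score here. In the vehicle list 234 of 395 (59.2%, 54.2 to 64.1) had the score 5.19. All intron and intergenic regions were at these scores in 52.2% and 56%, so the B1 shares were near them. A further 19 vehicle B1 regions shared the score 7.35, and 11 BIBR1532 B1 regions shared the score 1.29. No source used here says whether the scores of the lists share a scale, and regions were not compared by score across lists. Scores of the common list were at most 0.913, and those of the BIBR1532 and vehicle lists at least 1.05 and 1.06.

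Low scores were rare among vehicle B1 regions. Under the tied score lay 15 of 395 (3.8%, 2.14 to 6.19), against 6.9% of all intron and intergenic regions of that list (6.5 to 7.31). In the BIBR1532 list 49 of 319 lay under it (15.4%, 11.6 to 19.8), against 17.7% (17 to 18.3). Of the 64 low-scoring B1 regions, 49 were thus BIBR1532 regions (76.6%, 64.3 to 86.2), and over all intron and intergenic regions that share was 68.9% (67.3 to 70.4), inside the B1 interval. Over the tied score lay 96 BIBR1532 and 146 vehicle B1 regions (39.7% BIBR1532, 33.5 to 46.1), against 41.2% of all intron and intergenic regions.

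**Figure D3:**
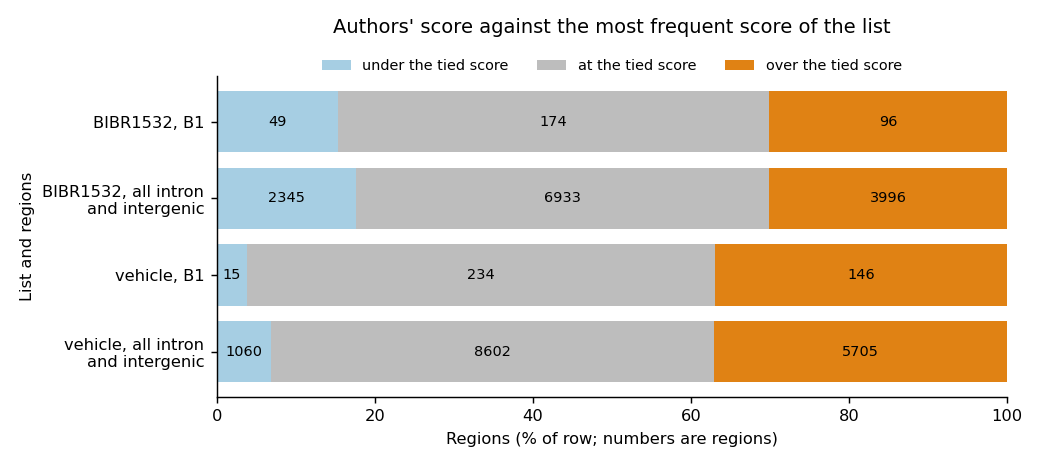
Percent of regions (x axis; the numbers in the bars are regions) under, at and over the tied score, for B1 and for all intron and intergenic regions of each condition-specific list. B1 follows the wider set except under the tied score of the vehicle list, where 15 of 395 lie.

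Condition-specific B1 regions had a median width of 276 bp, against 247 bp for B2, 251 bp for B4 and 253 bp for all intron and intergenic regions. Other repeat families were wider, with 280 bp for MaLR, 294 bp for L1 and 300 bp for L2. By list the B1 medians were 212 bp in the common list (range 122 to 735), 266 bp in the BIBR1532 list (120 to 9486) and 288 bp in the vehicle list (120 to 6144). Young copies had a median of 221 bp in the BIBR1532 and 300 bp in the vehicle list, murid copies 290 and 305 bp, and older copies 251 and 274 bp. No intervals were computed for these medians. At least 500 bp were 58 BIBR1532 regions (18.2%) and 77 vehicle regions (19.5%), and at least 2 kb were 9 and 11. The widest BIBR1532 region lay at chr1:109084855-109094340, 893 kb upstream of its nearest gene, the cadherin gene Cdh7. The widest vehicle region lay at chr6:75650083-75656226, 1589 kb upstream of Lrrtm1, which encodes a synaptic adhesion protein. In regions this wide the B1 copy at the centre takes up a small part, and both had the tied score of their list.

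B1 regions lay closer to genes than L1, MaLR and B4 regions at distances of 10 kb. Right beside start sites they were few, as B2 and B4 regions were. The median distance from the region centre to the nearest transcription start site was 20.6 kb for condition-specific B1, 20.9 kb for B2, 26.4 kb for B4, 39.8 kb for MIR and 78.4 kb for L1. Within 10 kb of a start site lay 218 of 714 B1 regions (30.5%, interval 27.2 to 34.1), against 30.7% for B2 (27.3 to 34.3), 23.7% for B4 (20.9 to 26.6), 18.6% for the LTR family MaLR (16.2 to 21.1) and 10% for L1 (8.86 to 11.3). The small families ID and ERV1 had 38.6% (27.2 to 51) and 24.1% (17.7 to 31.4). All intron and intergenic regions had 22.6% (22.1 to 23.1). The B1 interval overlapped those of B2, ID and ERV1 and lay above those of B4, MaLR, L1 and all intron and intergenic regions. At shorter distances the B1 share was not above that of all intron and intergenic regions. Within 5 kb the B1 share was 13.9% (11.4 to 16.6) against 13.6% of all intron and intergenic regions. Within 2 kb it was 5.74% (4.15 to 7.71) against 8.22% (7.9 to 8.54), and within 1 kb 0.7% (0.228 to 1.63) against 4.95% (4.7 to 5.2), both lower. That was not particular to B1. Within 2 kb B2 had 3.97% (2.65 to 5.68) and B4 3.32% (2.23 to 4.73). Within 1 kb they had 0.85% (0.313 to 1.84) and 1.03% (0.472 to 1.95). By list, 32.6% of BIBR1532 B1 regions (27.5 to 38) and 28.9% of vehicle ones (24.4 to 33.6) lay within 10 kb. Of the 11 common B1 regions, 6 lay within 10 kb and 2 within 1 kb.

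**Figure D4:**
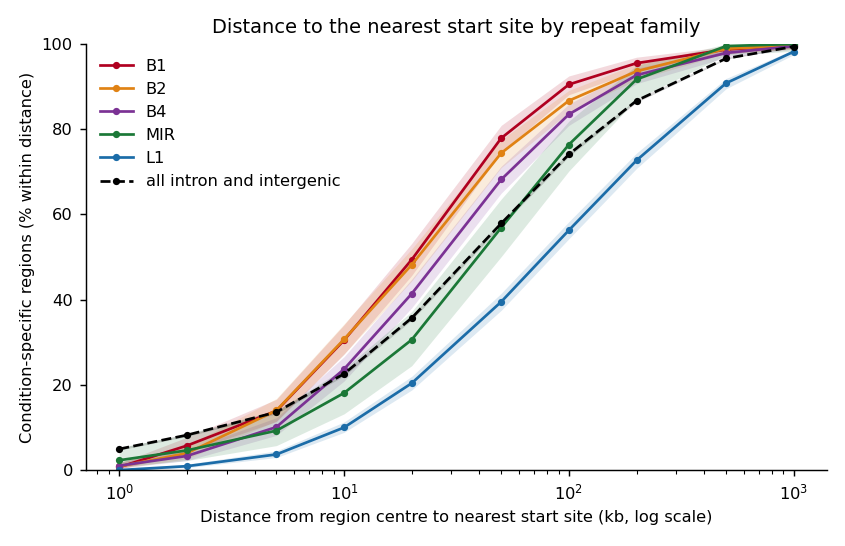
Percent of condition-specific regions (y axis) whose centre lies within a given distance of the nearest transcription start site (x axis, log scale), by repeat family, with exact 95% intervals as bands. At 10 kb the B1 and B2 curves reach 30.5% and 30.7%, above B4 at 23.7% and L1 at 10%. At 1 kb the B1, B2, B4 and L1 curves are all near 0.

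Gene number around the regions ran the same way. Within 100 kb of a condition-specific B1 region lay a median of 3 protein-coding genes (RefSeq, same assembly), against 3 for B2, 2 for B4 and MIR and 1 for L1. No such gene lay within that distance of 46 B1 regions (6.44%, interval 4.76 to 8.5). B2 had 7.79% (5.92 to 10) and ID 8.57% (3.21 to 17.7), with intervals that overlapped that of B1, so the low share was not particular to B1. The share was 12% for B4 (9.93 to 14.4), 33.5% for L1 (31.6 to 35.4) and 17% for all intron and intergenic regions (16.5 to 17.4). The common B1 regions had a median of 5 genes. Murid copies lacked a gene in 3.98%, older copies in 6.99% and young copies in 7.93%. No comparison with all B1 copies of the genome was made, so the part played by where the copies lie was not tested.

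In introns lay 165 of 319 BIBR1532 B1 regions (51.7%, interval 46.1 to 57.3), 219 of 395 vehicle regions (55.4%, 50.4 to 60.4) and 4 of 11 common regions. All other B1 regions were intergenic. B2 and B4 regions were intronic in 53.4% and 53.7%, and L1 regions in 34.7% (32.8 to 36.7). Of the intronic B1 regions, 109 of 384 lay in intron 1 (28.4%, 23.9 to 33.2), against 35.3% of all intronic regions (34.5 to 36). B2 had 29.4% (24.9 to 34.3), B4 29.9% (25.7 to 34.2) and L1 30.6% (27.4 to 33.8), so a low share was not particular to B1. By list, intron 1 held 55 of 165 BIBR1532 B1 regions (33.3%, 26.2 to 41.1) and 54 of 219 vehicle ones (24.7%, 19.1 to 30.9), intervals that overlapped.

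The gene nearest to a B1 region was mostly protein-coding. That was so for 631 of 725 regions (87%), and for all 11 common ones. A non-coding RNA gene was nearest to 28 of 319 BIBR1532 regions (8.78%, interval 5.91 to 12.4) and 58 of 395 vehicle regions (14.7%, 11.3 to 18.6), with overlapping intervals. Over all intron and intergenic regions it was 18.5% (17.9 to 19.2) and 18.8% (18.2 to 19.5). For BIBR1532 regions the B1 interval lay below that of the wider set, and also just below those of B2 (16.4%, 12.6 to 20.7) and B4 (16.9%, 13.4 to 21). For vehicle regions it overlapped those of B2 and B4.

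Chromosomes 2 and 11 held the most condition-specific B1 regions. Chromosome 2 had 28 BIBR1532 and 45 vehicle regions, 10.2% of all (interval 8.1 to 12.7), against 7.95% of the intron and intergenic regions. Chromosome 11, a gene-rich chromosome, had 34 and 28, or 8.68% (6.72 to 11) against 6.13%. Chromosome 3 had 16 and 9, or 3.5% (2.28 to 5.13) against 5.64%. On these 3 chromosomes alone the interval did not hold the share of the wider set, among 20 chromosomes examined. By direction, chromosome 8 had 8 BIBR1532 and 22 vehicle regions (26.7% BIBR1532, 12.3 to 45.9) where the wider set had 48.1%. On chromosome X there were 10 and 4 (71.4%, 41.9 to 91.6) where it had 43.8%, a share that the B1 interval held. Chromosome 8 was the only one of the 20 whose B1 interval did not hold the BIBR1532 share of its wider set.

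**Figure D5:**
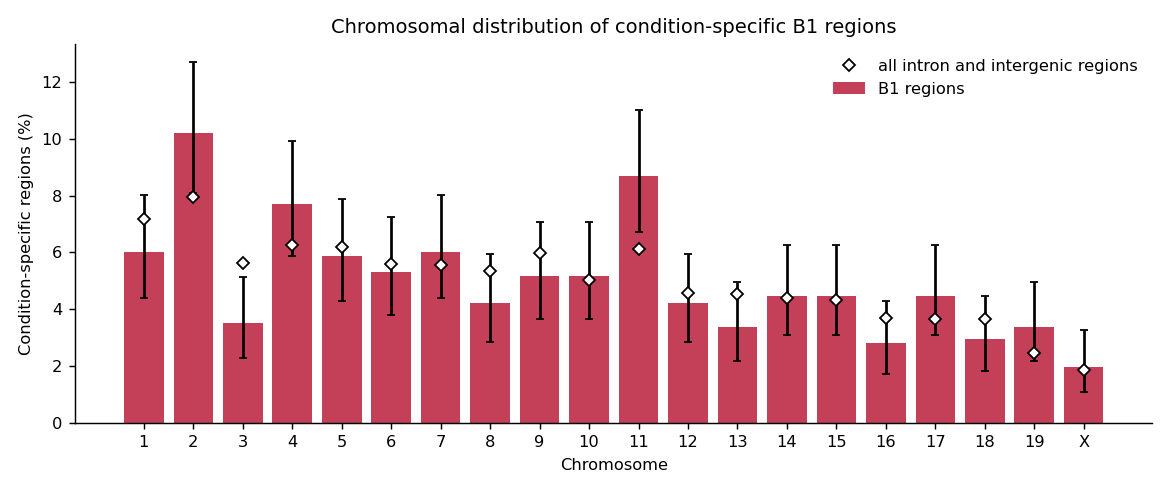
Percent of condition-specific regions on each chromosome (x axis), for B1 regions (bars, with exact 95% intervals) and for all intron and intergenic regions (diamonds). The diamond lies under the interval on chromosomes 2 and 11 (7.95% and 6.13%) and over it on chromosome 3 (5.64%).

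The common B1 regions were few enough to name. The authors' scores ran from 0.012 to 0.176 among them and are used here to rank regions within this list only. The whole common list ran from 0.002 to 0.913. The BIBR1532 and vehicle lists began above that, at 1.05 and 1.06, so a higher common score lay nearer to theirs. No source used here says that a higher score marks a stronger shared region. The highest was that of a B1_Mur1 copy 8.81 kb upstream of Map4, a microtubule-associated protein gene, at chr9:109922837-109923084 (score 0.176). A B1F1 copy near Slfn14, which encodes a ribosome-associated nuclease, scored 0.165. A PB1D7 copy 5.35 kb upstream of the mitochondrial sirtuin gene Sirt4 scored 0.152. Of these 3 genes Sirt4 also had a common region at its promoter.

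Both common B1 regions within 1 kb of a start site were intronic. A B1F copy in intron 2 of 8 of Ankle1, which encodes an endonuclease with ankyrin repeats, lay 488 bp from the start at chr8:71406396-71406604 (score 0.155). Its promoter window, shown above, holds the common and vehicle regions already given. A B1_Mus1 copy in intron 1 of 4 of Cenps, a kinetochore protein gene, lay 605 bp from the start at chr4:149136935-149137056 (score 0.127).

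Further common B1 regions lay 6.78 kb upstream of Arl4d, a small GTPase gene (0.080), and 7.03 kb upstream of the bone morphogenetic protein receptor gene Bmpr1a (0.049). Others were in intron 2 of 39 of the chromatin remodeller gene Chd9 (0.025) and 11.6 kb upstream of Tmem160 (0.015). The widest, of 735 bp, was a B1_Mus1 copy in intron 1 of 3 of Lrfn5, which encodes a synaptic adhesion molecule (0.012). The remaining region, a PB1D10 copy near Gm17359, tied with it in score. Gm17359 falls outside the rule for naming and was named after its value was seen. Another common region lay within 200 bp of 3 of the 11, with gaps of 79 bp at Ankle1, 81 bp at Sirt4 and 96 bp at Arl4d. The gene nearest to 3 of the 11 regions (Sirt4, Bmpr1a and Chd9) had a common region that the annotation classes as promoter, or 27.3% (interval 6.02 to 61). Ankle1 is not among them, since the common region over part of its promoter window is classed as intron. For condition-specific B1 regions it was 108 of 714 (15.1%, 12.6 to 18), against 13.5% of all intron and intergenic regions (13.1 to 13.9).

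Among the BIBR1532 B1 regions the highest score was that of a B1_Mur4 copy 8.52 kb from the start of Sowaha, at chr11:53471426-53471934 (15.86). A PB1D10 copy in intron 2 of 4 of Asb16, a SOCS box protein gene, followed with 14.43. A B1_Mm copy 11.2 kb upstream of Npm1, which encodes the nucleolar protein nucleophosmin, scored 14.06. Next were a B1_Mur1 copy in an intron of CK137956 (12.60) and a B1_Mur4 copy in intron 1 of 8 of Pcyt1a (11.95), the gene of the rate-limiting enzyme of phosphatidylcholine synthesis. None of these 5 was at the tied score, and none of their genes had a common promoter region.

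In the vehicle list the highest score was that of a B1_Mus1 copy in intron 2 of 10 of Csnk1e, a casein kinase gene of the circadian clock, at chr15:79433577-79433880 (14.35). A PB1D10 copy 22.2 kb upstream of Ranbp9, which encodes a Ran-binding scaffold protein, scored 11.88. A B1_Mur4 copy in intron 3 of 9 of Prkaca scored 11.35. Prkaca encodes the catalytic subunit of protein kinase A and also had a common promoter region. Stab2, a scavenger receptor gene, had a B1_Mur3 copy in intron 33 of 68 (10.10), and D10Wsu102e a B1_Mus1 copy in intron 1 of 3 (9.90), 1.27 kb from its start.

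Within 1 kb of start sites both lists held few B1 regions, 1 in the BIBR1532 and 4 in the vehicle list. Within 5 kb they held 50 of 319 (15.7%, interval 11.9 to 20.1) and 49 of 395 (12.4%, 9.32 to 16.1), intervals that overlapped. In the BIBR1532 list the regions closest to a start site were as follows. The nearest was a B1_Mus1 copy 655 bp into the non-coding gene 9630028I04Rik (score 8.36), the only BIBR1532 B1 region within 1 kb. Next came a PB1D9 copy in intron 1 of 14 of Adar, 1028 bp from a start at chr3:89731632-89731860 (8.92). Adar encodes the enzyme that edits adenosine in double-stranded RNA, for which paired SINE copies in transcripts are known substrates. A common region abutted this Adar region, with 0 bp between them. A B1F copy lay 1089 bp upstream of Fam57b (8.88) and a B1_Mus2 copy 1130 bp upstream of Oaz1, an inhibitor of polyamine synthesis (4.30). A B1_Mus2 copy lay 1189 bp into Drg2, a GTP-binding protein gene (6.34, the tied score).

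The vehicle list had 4 B1 regions within 1 kb. A PB1D9 copy lay 351 bp into Rbm28, a nucleolar RNA-binding protein gene, at the tied score of 5.19. A B1_Mur2 copy lay 819 bp into the melanocyte gene Mlana (6.26) and a B1_Mus1 copy 886 bp into Tars2, a mitochondrial tRNA synthetase gene (6.06). Beyond 1 kb, a B1F copy lay 1017 bp into the fibroblast growth factor receptor gene Fgfr4 (5.19). These 4 were in intron 1.

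Few genes had several B1 regions. The 714 condition-specific regions were assigned to 687 genes, of which 663 had 1 region, 23 had 2 and 1 had 4. The gene with 4 was Taok1, which encodes a serine/threonine kinase. Its BIBR1532 regions were a B1_Mur4 copy in intron 1 of 19 (score 6.34), a B1_Mm copy 1.37 kb upstream of the start (1.29) and a PB1 copy 16.3 kb upstream (5.40). Its vehicle region was a B1_Mus2 copy 26 kb upstream (9.36). Taok1 had 9 regions of any class in all, 2 of them common, 3 BIBR1532 and 4 vehicle.

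Both conditions shared 11 genes through B1 regions, 3.51% of the 313 BIBR1532 genes and 2.86% of the 385 vehicle genes. For B2 it was 10 genes (2.94% and 2.86%) and for B4 26 genes (6.74% and 5.66%), so an overlap this small was not particular to B1. Beside Taok1 these were Chd6, Erh, Kansl1, Psma6, Socs7, Stk24, Tnrc18, Trio, Trip4 and Wnt8a, with 1 region in each list. The last 6 fall outside the rule for naming and were named after their values were seen. The chromatin remodeller gene Chd6 had a PB1D10 copy 22 kb upstream in the BIBR1532 list (6.34) and a B1_Mur4 copy 12.8 kb upstream in the vehicle list (9.41). Kansl1, a histone acetyltransferase complex gene, had a B1_Mus2 copy in intron 2 of 14 (BIBR1532, 8.13) and a B1_Mur4 copy in intron 5 of 14 (vehicle, 5.19). The proteasome gene Psma6 had a B1_Mus1 copy in intron 1 of 6 (BIBR1532, 6.34) and a PB1D11 copy in intron 4 of 6 (vehicle, 6.06). At Erh, a splicing factor gene, they were a B1_Mm copy 56.3 kb (BIBR1532, 7.28) and a B1_Mur4 copy 16.6 kb from the start (vehicle, 6.54).

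Of the BIBR1532 B1 regions, 7 of 319 lay within 10 kb of a vehicle B1 region (2.19%, interval 0.887 to 4.47), and the smallest gap was 724 bp, at Wnt8a. The same share was 0.862% for B2 (0.178 to 2.5) and 1.01% for B4 (0.276 to 2.57), with overlapping intervals. Nearness to regions of any kind depended on the distance used. Within 1 kb of any common region lay 3 of 395 vehicle B1 regions (0.759%, interval 0.157 to 2.2), against 3.41% of the other vehicle regions in introns and intergenic sequence (3.12 to 3.71). Within 1 kb of any BIBR1532 region lay 6 of them (1.52%, 0.559 to 3.28), against 3.43% (3.15 to 3.74). The second pair of intervals overlapped and the first did not. For BIBR1532 B1 regions, 11 of 319 lay within 1 kb of a common region (3.45%, 1.73 to 6.09, against 4.31%) and 12 within 1 kb of a vehicle region (3.76%, 1.96 to 6.48, against 4.11%). Within 10 kb the order was the other way for most pairs of lists. A common region lay that near to 14.1% of BIBR1532 B1 regions (10.5 to 18.4), against 9.51% of the other BIBR1532 regions (9.01 to 10), and a vehicle region to 27.6% (22.8 to 32.8), against 21.2% (20.5 to 21.9). For vehicle B1 regions it was 10.1% for common neighbours (7.33 to 13.5, against 7.71%) and 17.7% for BIBR1532 neighbours (14.1 to 21.9, against 18.1%). Upstream of Tmem160 a BIBR1532 region with its centre in a B1F2 copy ended at base 16441052 of chromosome 7 and the common B1_Mus2 region began at the next base.

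The synaptic lists, of 20 and 24 genes, had no B1 region, though other synaptic genes did, such as Lrfn5 and Lrrtm1 above. The 20 synaptic adhesion genes examined, such as Lsamp and Cadm2, were nearest to 250 condition-specific intron and intergenic regions. Of these 39 had their centre in L1, 3 in B2, 2 in B4 and 0 in B1. The exact upper limit of that share is 1.46%, and the limit of 3 counts is 1.2%. Over all such regions the B1 share was 2.49% (2.32 to 2.68). Of those 28641 regions 706 were in B2 and 874 in B4, so B1 was not alone in being few at the adhesion genes. The 250 regions lie at only 20 genes, and the list was chosen with earlier results of these data known. The limit therefore cannot decide whether the B1 share was lower. The 24 synaptic receptor and channel genes were nearest to 123 such regions, with 22 in L1, 6 in B4, 1 in B2 and 0 in B1. The exact upper limit of 2.95% for B1 holds the overall share, while the limit of 3 counts is 2.44%, so a lower share was not shown for this list either. The RNA polymerase III list, which also holds signal recognition particle proteins, had 0 B1 regions of 17. The repressors of transposable elements had 0 of 15 and the telomere list 0 of 20. With so few regions the exact upper limits were 19.5%, 21.8% and 16.8%, all above the overall share. Across all protein-coding genes, 598 of 21896 (2.73%) were nearest to a B1 region.

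Of the genes fixed by name, Mapt, which encodes tau, was nearest to 1 B1 region. It was a BIBR1532 region of 126 bp over a B1F copy in intron 1 of 11, at chr11:104249049-104249174, with the tied score of 6.34. Tert, Terc, Myc, Bdnf, App, Ctnnb1 and Ccnd1 had 0. Ctnnb1 and Ccnd1 were nearest to 0 regions of any class, Tert, Myc and Bdnf to 1 each, Terc to 2 and App to 6. Over all condition-specific regions the B1 share was 2.06%, so counts this small cannot set these genes apart. Among cell type markers, 2 of 16 neuronal genes (Snap25 and Syt1) had a common promoter region, as did 1 of 8 astrocyte (Sox9) and 1 of 8 progenitor markers (Vim). The microglial, oligodendrocyte lineage, and endothelial and mural lists, of 8 markers each, had 0. Of these 56 markers, 0 were nearest to a B1 region. Across all protein-coding genes that share was 2.73%, so 56 genes are too few to show a lower one. The share of all genes with a common promoter region was not computed. The marker counts therefore do not settle the make-up of the cultures.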

How the data were processed

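The authors deposited 3 lists of TERT CUT&Tag regions. Per the file headers, each condition entered as 3 libraries joined together, and annotatePeaks.pl with mm10 supplied the annotation. MACS2 2.1.2, Picard, Bowtie2 and CASAVA 1.8 are listed, without roles, in the submitters' processing notes. The score of each region is the deposited value of the authors. No source used here tells how the pools were scaled. Scores served only within a list, for ranks, filters and description. Both condition-specific lists were decoded from a 7-bit text encoding.

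The rule above gave the members, from column values of the annotation. All 725 are accounted for; 0 further B1 regions lay on chromosome Y or contigs. Shares and exact (Clopper-Pearson) 95% intervals were computed with scipy 1.17.1, numpy 2.4.6 and pandas 2.3.3 under Python 3.11.15 (figures: matplotlib 3.10.9), and the intervals were tested on simulated data. Distances are those of the annotation. Of 696 genes nearest to B1 regions, 695 matched RefSeq by gene ID. Depth per sample is unknown from the lists. No test across samples was possible, since none has values of its own.

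Genes named were those of the 5 highest scores per list, the 5 with most condition-specific B1 regions, 10 common regions, the 5 condition-specific regions per list closest to a start site, and 8 genes fixed by name. Genes of the widest regions and of neighbours were added, and promoter windows within 1500 bp of a named B1 region that a deposited region overlaps. A named item of the rule is not reported here. Members and gene lists were chosen with earlier results of these data known. Alternatives were score minimums of 2 and 3, leaving out tied scores, a width of at least 500 bp, merging within 1 kb, base pairs as units, all contigs, other denominators, names starting with B1, and distances of 5, 10 and 50 kb. The intron and intergenic denominator and the settings without scores under or over the tied score were added after seeing the data.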

Additional observations from a re-analysis of the deposited data

How the results depend on the processing

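No paired analysis was possible because no library has values of its own, and none could be left out. The BIBR1532 share of B1 regions stayed inside its interval under each of its 11 alternatives, as did the shares by age group, each under 4. Adding chromosome Y and contigs could not change that share, since 0 B1 regions lie there. Merging within 1 kb left 713 of the 714 regions. Most other alternatives kept a part of the same regions, so they are not independent of the main value. Of 91 alternative values for 22 results, 64 stayed inside the interval of the result and 27 moved out.

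The B1 share of a list moved with its denominator. With interspersed repeats it was 4.64% (common), 9.1% (BIBR1532) and 9.56% (vehicle), and with intron and intergenic regions 0.507%, 2.4% and 2.57%, in place of 0.161%, 1.98% and 2.13% of all regions. For the BIBR1532 and vehicle lists it was 1.69% and 1.74% without tied scores, 2.27% and 2.73% at 500 bp or more, 1.5% and 1.52% for names starting with B1, and 2.21% and 2.35% without scores under the tied one. At 500 bp or more the intron share of BIBR1532 B1 regions was 43.1% and the older share of vehicle ones 37.7%. The common list then held 1 B1 region, a young copy in an intron, so its young and intron shares were 100% and its murid and older shares 0%. Without tied scores 38.6% of BIBR1532 B1 regions lay within 10 kb of a start site. By construction, 5 and 50 kb gave 18.2% and 90.9% (common), 15.7% and 76.8% (BIBR1532), and 12.4% and 78.7% (vehicle). The motif search in the regions themselves was not run, as no genome sequence was used here.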
